A study of Homo sapiens with 4 samples.

Results

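Combination-only promoters are protein-coding promoters that overlapped at least 1 H3K27Ac peak after treatment with SNDX-50469 plus OTX015 and no peak after OTX015 alone. A promoter is the 5′ end of the RefSeq gene record (GRCh38) with 1 kb on either side, and 1 bp of overlap counted. Chromosomes 1 to 4, 7, 9 to 12, 14 to 18, 21 and 22 were covered, which is 16 chromosomes. The members were chosen by the presence and absence of peaks in these same 2 peak lists, so their number, width and strength are a description and support no test. There were 505 of them among 13937 promoters on these chromosomes, and 19671 promoters on all chromosomes. That is 3.62% of the promoters classed (95% Wilson interval 3.33 to 3.95%, which covers counting over promoters alone).

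The comparison addresses what a Menin inhibitor adds to a BET inhibitor at the chromatin of acute myeloid leukemia cells. MOLM13, a human acute myeloid leukemia line that carries an MLL-AF9 fusion, was treated for 16 hours with 500 nM SNDX-50469 plus 500 nM OTX015 (the combination) or with 500 nM OTX015. SNDX-50469 blocks the binding of Menin to MLL, and OTX015 blocks the acetyl-lysine pockets of BET proteins, so every cell analysed here had received OTX015 and no untreated library was analysed here. Each treatment has 1 ChIP library and 1 list of broad peaks, and inputs were not used here. Titles of the samples give the mark as H2K27Ac, whereas the antibody is labelled for H3K27Ac, the name used here.

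Acetylation of lysine 27 of histone H3 is laid down by the acetyltransferases p300 and CBP and marks active promoters and enhancers. At an active gene it usually sits on the nucleosomes that flank the start site, with most of it just downstream. BET proteins bind acetylated histones and pass the signal on to transcription elongation, and Menin ties MLL and its fusions to chromatin at a set of leukemia genes.

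With 1 library per treatment no difference has a replicate check, and acetylation in fewer cells cannot be told apart from less acetylation per cell. The lists differ in their threshold, and the peak values point to a difference in depth. The combination list held 86207 peaks and the OTX015 list 55852, of which 17246 and 15440 lay on the 16 chromosomes and covered 7.35 Mb in each list. Solving the lowest peak values for the background gave 1.47 fragments per base with the combination and 0.764 with OTX015, a ratio of 1.92. This takes the background as constant along the genome, and whether the inputs entered peak calling is not given in the sources used here. On that reading a combination peak needed 4.76 times background to be listed, and an OTX015 peak 6.54 times. As a look at cell type, 9 of 13 promoters of granule and promyelocyte genes had a combination peak and 8 an OTX015 peak. None of 17 B cell promoters had a peak in either list. Monocyte and neutrophil effector genes had peaks at 6 of 37 in each list, and T and NK cell genes at 3 and 2 of 26. Over all 13937 promoters 1369 had a combination peak and 1667 an OTX015 peak, so 17 promoters without one say little.

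The reference sequence upstream of 6 members is shown to make visible how unlike the members are in CpG content, which the choice of members did not use. CEBPE encodes a factor of late granulocyte maturation, HNMT inactivates histamine, SNX27 returns receptors from endosomes to the cell surface, MNT is a MAX partner that represses E-box genes, RPLP2 is an acidic protein of the ribosomal stalk, and SEC61B is a subunit of the translocon of the endoplasmic reticulum. Each run holds the 250 bases before the start site, 5′ to 3′ on the strand of the gene, from RefSeq on GRCh38.p14, and the capitals mark every CG dinucleotide.
CEBPE: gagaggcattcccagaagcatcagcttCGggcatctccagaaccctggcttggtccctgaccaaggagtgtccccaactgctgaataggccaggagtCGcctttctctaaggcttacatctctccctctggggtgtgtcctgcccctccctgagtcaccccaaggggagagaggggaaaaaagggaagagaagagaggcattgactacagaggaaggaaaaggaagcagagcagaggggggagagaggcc
HNMT: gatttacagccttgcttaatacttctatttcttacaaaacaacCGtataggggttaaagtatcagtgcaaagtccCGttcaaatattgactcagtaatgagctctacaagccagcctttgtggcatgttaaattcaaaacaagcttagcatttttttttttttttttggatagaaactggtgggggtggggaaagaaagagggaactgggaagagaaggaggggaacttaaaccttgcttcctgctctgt
SNX27: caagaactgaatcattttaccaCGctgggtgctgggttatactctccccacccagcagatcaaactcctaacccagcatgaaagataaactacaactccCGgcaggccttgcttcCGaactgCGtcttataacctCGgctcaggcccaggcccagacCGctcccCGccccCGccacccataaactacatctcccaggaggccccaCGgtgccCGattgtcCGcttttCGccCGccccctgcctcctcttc
MNT: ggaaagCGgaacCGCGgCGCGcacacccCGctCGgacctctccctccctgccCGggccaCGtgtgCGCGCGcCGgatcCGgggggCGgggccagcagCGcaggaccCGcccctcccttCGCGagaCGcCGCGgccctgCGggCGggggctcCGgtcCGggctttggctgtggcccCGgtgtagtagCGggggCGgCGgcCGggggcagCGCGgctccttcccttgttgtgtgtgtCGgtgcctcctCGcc
RPLP2: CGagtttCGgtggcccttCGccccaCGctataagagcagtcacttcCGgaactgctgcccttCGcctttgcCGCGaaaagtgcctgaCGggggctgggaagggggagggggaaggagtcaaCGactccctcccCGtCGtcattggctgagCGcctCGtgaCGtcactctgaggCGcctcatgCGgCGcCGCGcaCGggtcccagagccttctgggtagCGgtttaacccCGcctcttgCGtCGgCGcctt
SEC61B: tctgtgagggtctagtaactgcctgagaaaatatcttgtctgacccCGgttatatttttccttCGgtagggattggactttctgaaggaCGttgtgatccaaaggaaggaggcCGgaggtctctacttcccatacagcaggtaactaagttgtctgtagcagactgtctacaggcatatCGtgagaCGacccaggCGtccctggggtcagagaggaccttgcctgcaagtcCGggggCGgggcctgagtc

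The stretch of CEBPE lies at chr14:23119256-23119505 on the minus strand and holds 2 CG dinucleotides. None of its 250 bases was under a combination peak. The strongest peak of this promoter lay upstream of the stretch, at chr14:23119510-23119907, and its other peak, of 967 bp, lay downstream of it. HNMT (chr2:137964223-137964472, plus strand) also holds 2 CG dinucleotides, and its peak at chr2:137963591-137964712 covered all 250 bases. SNX27 (chr1:151611800-151612049, plus strand) holds 13 and MNT (chr17:2401061-2401310, minus strand) 35, and both stretches lay wholly under their peaks, chr1:151611192-151612483 and chr17:2400386-2401623. RPLP2 (chr11:809717-809966, plus strand) holds 26 and lay wholly under chr11:809687-810512. SEC61B (chr9:99222032-99222281, plus strand) holds 9 and had 249 bases under chr9:99221414-99222280, a peak that it shares with its divergent neighbor ALG2. CpG-poor and CpG-dense promoters thus stand side by side among the members with wide peaks.

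Taken over the class, 415 of the 505 members (82.2%) have a promoter entry of 300 bases in the RefSeq table (250 before and 50 after a start site), 386 of them at a start within 1 kb of the 5′ end used here. A promoter was called CpG-rich with at least 50% GC and an observed over expected CpG ratio of at least 0.6. By this measure 281 of 415 combination-only promoters were CpG-rich (67.7%, Wilson 63.1 to 72.0%). The share was 78.0% of 692 OTX015-only promoters, 80.5% of 745 promoters with peaks in both lists, 61.6% of 9663 promoters with no peak, and 64.1% of all 11515. The combination-only class had the lowest share of the 3 peaked classes. The classes come from 1 library per treatment at different thresholds, some promoters share a start region, and the difference was not tested.

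CpG content went with little difference in width. CpG-rich members had a median peak width of 290 bp (n = 281) and the other members 252.5 bp (n = 134), and peaks of at least 500 bp made up 20.3% and 20.9% of them. The nearest OTX015 peak lay at a median of 26587 bp from CpG-rich members and 25589 bp from the others. Short motifs were counted on both strands of the 300 bases as a description. GGAAGT, the core of ETS factor sites, was in 31.6% of members, in 29.5% of OTX015-only promoters and in 24.7% of all promoters. The GC box GGGCGG was in 60.7% of members, in 63.4% of OTX015-only promoters, in 71.3% of promoters with peaks in both lists and in 58.4% of all promoters. TATAAA was in 8.19% of members and 9.83% of all, CCAAT in 36.4% and 35.6%, CACGTG in 9.64% and 8.88%, and TGTGGT in 13.3% and 10.9%. TGANTCA was in 8.43% and 5.77%, TTGCNNAA in 9.88% and 8.47%, TGACGT in 11.3% and 9.45%, and GCATGC in 8.19% and 7.82%. A match of such letters is no evidence of a bound factor.

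Of the 1369 promoters with a combination peak, 36.9% had no OTX015 peak in the window. In the other direction, 803 promoters (5.76% of 13937) had an OTX015 peak and no combination peak, and 864 (6.2%) had peaks in both lists. The OTX015 list thus held more promoters of its own than the combination list, with a ratio of combination-only to OTX015-only promoters of 0.629. The ratio was under 1 on all 16 chromosomes, between 0.333 on chromosome 4 and 0.891 on chromosome 3.

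Peaks at combination-only promoters were narrow. The strongest peak of a member had a median width of 269 bp (quartiles 154 and 449 bp, range 105 to 2295 bp, n = 505). At the 864 promoters with peaks in both lists, the combination peaks had a median of 594.5 bp (quartiles 336 and 1222 bp) and a maximum of 15163 bp. OTX015 peaks at the 803 OTX015-only promoters were close to the members, with a median of 303 bp (quartiles 175 and 498 bp). Width at combination-only promoters was near that of combination peaks anywhere on the 16 chromosomes, which had a median of 250 bp (n = 17246). Behind the 505 members stood 469 distinct peaks, with a median width of 272 bp, since neighbors can share a peak.

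**Figure D1:**
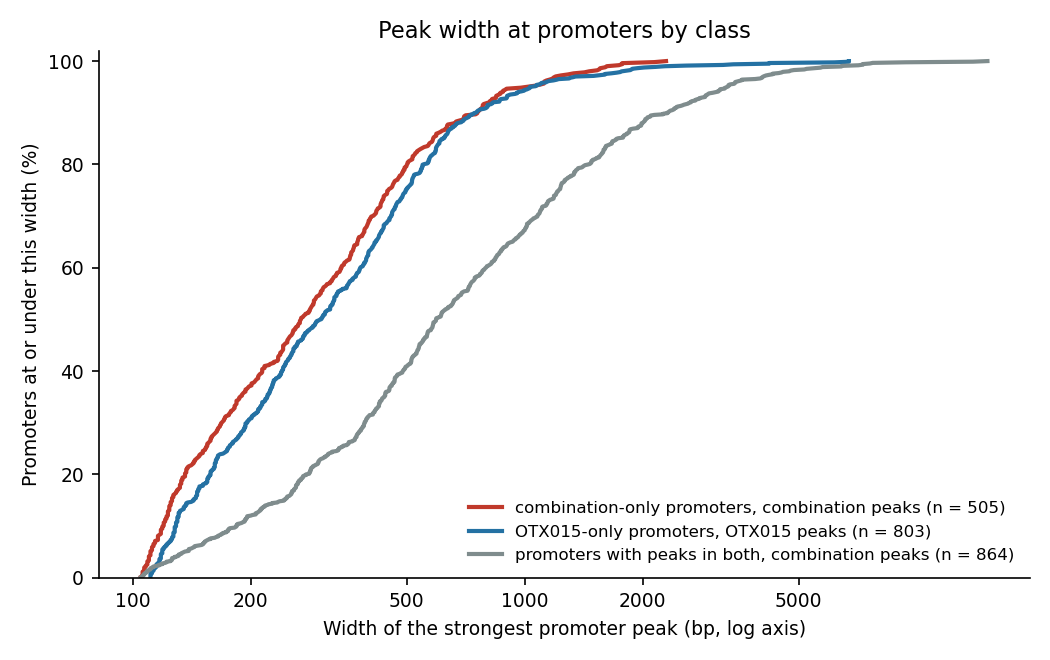
Width of the strongest promoter peak (log axis, bp) against the share of promoters at or under that width, for combination-only promoters (n = 505), OTX015-only promoters (n = 803) and the combination peaks of promoters with peaks in both lists (n = 864). The curves of the exclusive classes run close together, with medians of 269 and 303 bp, and the third lies to the right, with a median of 594.5 bp.

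Peaks of at least 500 bp were found at 103 members (20.4%), at 199 OTX015-only promoters (24.8%) and at 511 promoters with peaks in both lists (59.1%). Peaks of at least 1000 bp were found at 26 members (5.15%), 45 OTX015-only promoters (5.60%) and 284 promoters with peaks in both (32.9%). Most members, 485 of 505, had a single promoter peak, while 18 had 2 and 2 had 3. Of the 2 kb window, combination peaks covered a median of 239 bp at the members (quartiles 134 and 390 bp, range 2 to 1620 bp), 585 bp at promoters with peaks in both lists, and OTX015 peaks covered 273 bp at OTX015-only promoters. Just 10 members had 1 kb or more of the window under peaks, and 40 had less than 100 bp.

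These peaks were also weak, and few reached the enrichment that the OTX015 list required. The deposited fold enrichment, averaged by the peak caller over a peak, had a median of 3.38 at members (range 3.24 to 4.33), and 112 members (22.2%) sat at the lowest fold of the whole combination list, against 6.48% of promoters with peaks in both lists. The median −log10 q was 1.48 at members and 1.84 for the combination peaks of promoters with peaks in both lists. Converted to enrichment over the solved background, members had a median of 5.00 times, and 1 of 505 reached the 6.54 times that the lowest OTX015 peak needed, against 87 of 864 promoters with peaks in both lists. That member is FEM1B, a substrate receptor of a CUL2 ubiquitin ligase, at 6.59 times. When both lists were held to this common enrichment, 1 combination-only promoter and 1580 OTX015-only promoters were left. Once peaks under a −log10 q of 2 were dropped from both lists there were 172 combination-only promoters, of which 50 were among the 505. Depth and treatment cannot be told apart at these promoters.

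**Figure D2:**
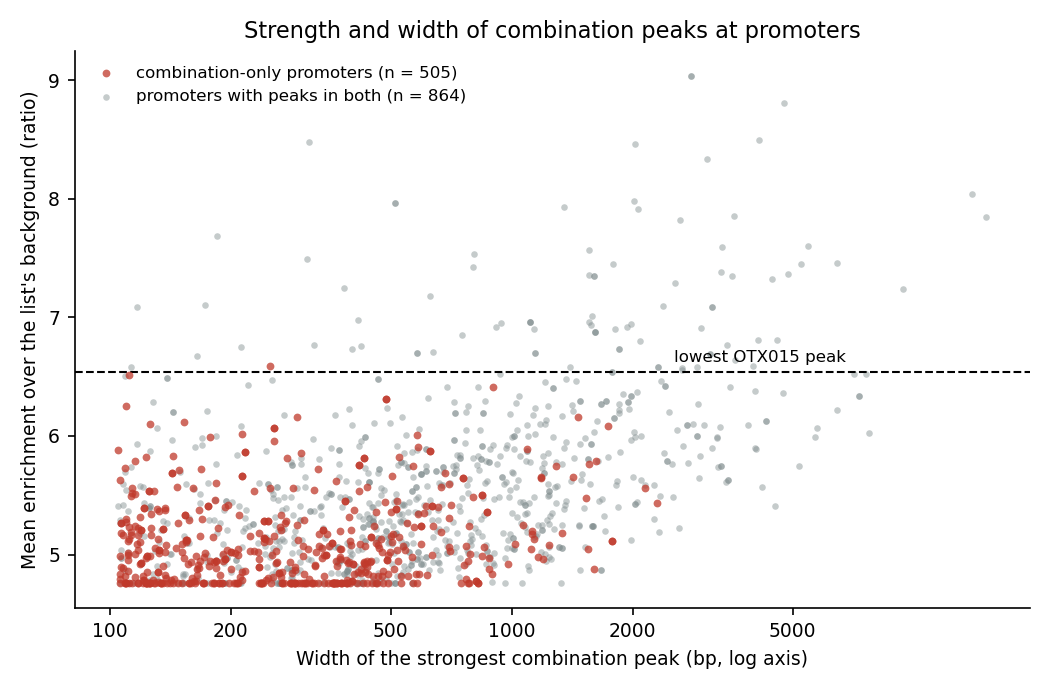
Width of the strongest combination peak (log axis, bp) against its mean enrichment over the background of the combination list, for combination-only promoters (n = 505, red) and promoters with peaks in both lists (n = 864, grey), with a dashed line at the 6.54 times of the lowest OTX015 peak. FEM1B, at 6.59 times, is the 1 red point above the line.

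Where the peaks sat in the window also differed by class or by peak list. The 5′ end itself lay inside a peak at 88 members (17.4%), at 103 OTX015-only promoters (12.8%) and at 332 promoters with peaks in both lists (38.4%). The middle of the strongest peak was downstream of the 5′ end at 303 members (60%) and at 554 OTX015-only promoters (69.0%). At promoters with peaks in both lists this held for 62.5% by combination peaks and 67.4% by OTX015 peaks. On this measure the shares thus went with the peak list and are no trait of the members. OTX015 peaks of OTX015-only promoters piled up at one place, with 37.4% of these promoters covered 300 bp downstream of the 5′ end. No such summit was seen at combination-only promoters, where coverage was 17.4% at the 5′ end and 20.4% at 500 bp downstream, and was highest at 600 bp with 21.6%. Of promoters with peaks in both lists, 49.1% were covered by combination peaks at 350 bp downstream.

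**Figure D3:**
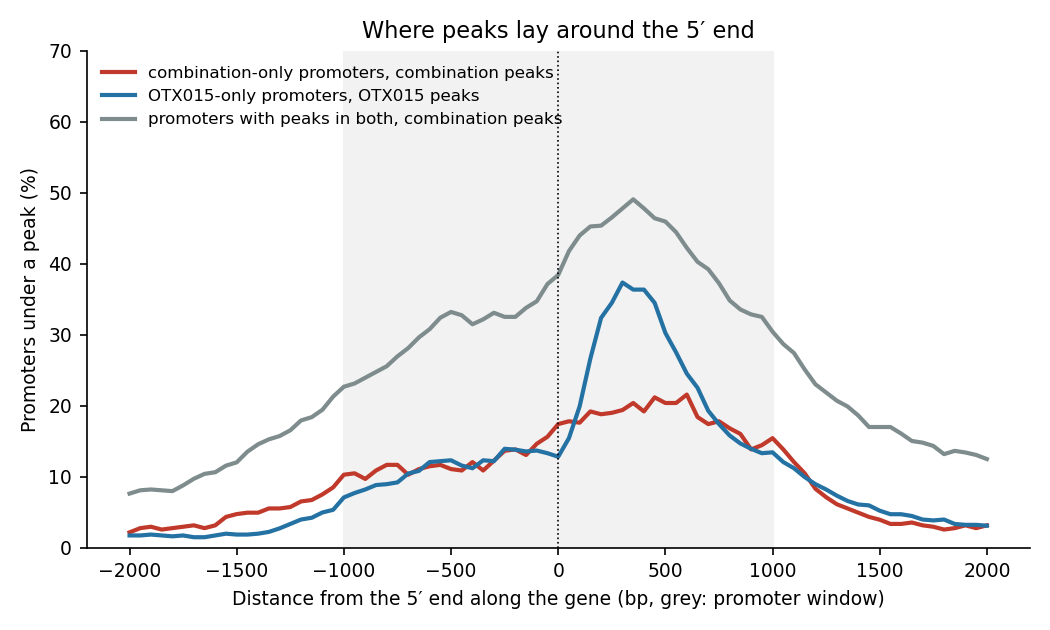
Share of promoters under a peak by distance from the 5′ end (bp, positive downstream) for combination-only promoters, OTX015-only promoters and promoters with peaks in both lists (combination peaks), with the promoter window in grey. The red line stays at or under 21.6%, and the blue line has a summit of 37.4% at 300 bp downstream.

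The rule has an edge on either side. Among the members with the smallest overlap were IPO13, an importin, with 2 bp of a 121 bp peak in the window, and VIT with 5 bp of a 105 bp peak. Left out for the smallest OTX015 overlap were MYO15B (1 bp), PLAC8 (15 bp) and GSK3B (23 bp), whose combination peaks covered 165, 116 and 255 bp of the window. Among members, the nearest OTX015 peak lay 1004 bp from the 5′ end at MXI1, a MAX partner, 1008 bp at CD53, a leukocyte tetraspanin, and 1029 bp at CCNL2, a cyclin linked to splicing.

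The absence of OTX015 peaks reached beyond the window at most members. The nearest OTX015 peak was at a median of 25802 bp from the 5′ end (quartiles 8254 and 69996 bp, range 1004 to 770513 bp). There was none within 10 kb at 362 members (71.7%) and none within 100 kb at 73, while 45 members had one between 1 and 2 kb away. For comparison, 493 of 803 OTX015-only promoters (61.4%) had no combination peak within 10 kb. The share of all promoters with no OTX015 peak within 10 kb was not computed. In the 2 kb window, 84.4% of all 13937 promoters had no peak of either list, so such an absence is common and not particular to the members. Within 10 kb of the 5′ end, combination peaks covered a median of 412 bp (range 105 to 7565 bp) and OTX015 peaks a median of 0 bp (upper quartile 137 bp, highest 5278 bp). At 44 members the OTX015 list covered more of these 20 kb than the combination list did. Combination cover reached outside the 2 kb window at 264 members, by further peaks or by promoter peaks that extend past the window. Gene bodies held combination peaks at 418 members and OTX015 peaks at 159. The 10 kb span holds the promoter window, and each gene body starts at the 5′ end. In that window the rule requires a combination peak and bars OTX015 peaks, so it fixes part of these differences in advance.

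Of the 10 members with the largest cover, SRGN and CEBPE are in the list of granule and promyelocyte genes and NFE2 and CEBPE in that of hematopoietic transcription factors. SRGN, serglycin, the proteoglycan on which granule proteins are packed, had 1558 bp of its window under a single peak in the combination list, and within 10 kb the lists covered 1698 bp with the combination and 268 bp with OTX015. CEBPE had 1058 bp under 2 peaks of 398 and 967 bp, and 3483 bp within 10 kb, with no OTX015 peak closer than 40291 bp. NFE2, a bZIP factor of the erythroid and megakaryocyte lineages, had 1068 bp under a peak of 1552 bp, 2961 bp within 10 kb, and its nearest OTX015 peak at 19715 bp. GPR84, a myeloid receptor for medium-chain fatty acids and a neighbor of NFE2, had 1019 bp under a peak of 1740 bp, and 2480 bp against 414 bp of OTX015 cover within 10 kb. GPR84 was also among the 10 members with the highest −log10 q, at 2.43. CEBPE and NFE2 were thus clear of OTX015 peaks for over 10 kb, whereas SRGN had an OTX015 peak 1453 bp from its 5′ end.

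The other members with the largest cover have general roles. NADK, the kinase that makes NADP, had the largest, 1620 bp under a single peak, with 3217 bp of combination and 735 bp of OTX015 cover within 10 kb. USF1, an E-box factor, had 1327 bp under the widest peak of any member, 2295 bp, with 143 bp of OTX015 cover within 10 kb. SNX27 had 1292 bp and MNT 1238 bp, and neither had an OTX015 peak within 10 kb. HNMT had 1122 bp, with an OTX015 peak 4004 bp away. SLC38A10, of a family of amino acid transporters, had 1114 bp, and within 10 kb its cover was 1739 bp with the combination and 1508 bp with OTX015, so that its surroundings were covered to a similar length in both lists.

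Width and strength picked out partly different genes. The widest peaks after USF1 were at TLR9, the endosomal receptor for unmethylated CpG DNA, with 2142 bp, of which 384 bp reached the window, and at the head-to-head genes BRCA1 and NBR1, which share a peak of 1774 bp. BRCA1 acts in homologous recombination and NBR1 is an autophagy receptor. A peak of 1607 bp lay at ATP6V0C, a subunit of the proton pump of lysosomes, and one of 1531 bp at TNFAIP2, a TNF-induced gene. OTX015 peaks lay nearby at each of these, 1242 bp from TLR9, 1557 bp from BRCA1, 1475 bp from NBR1, 1543 bp from ATP6V0C and 4280 bp from TNFAIP2. TLR9 had the most cover of these in both lists, 4362 bp with the combination and 2290 bp with OTX015 within 10 kb.

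By −log10 q the highest members after FEM1B (2.86, a peak of 251 bp) were ADAM30, a gene of the testis, with 2.75 and 112 bp, and ADIPOR2, an adiponectin receptor, with 2.74 and 899 bp. The neighbors GEN1, a resolvase of Holliday junctions, and SMC6, of the SMC5/6 complex, shared a peak of 487 bp with 2.58. CPPED1, a phosphatase, followed with 2.50 and 1461 bp. MAP2K5, the kinase upstream of ERK5, had 2.46 and 110 bp, SIRT4, a mitochondrial sirtuin, had 2.46 and 293 bp, and RBM34, an RNA-binding protein, had 2.40 and 126 bp. Of these 10 members GPR84 alone had an OTX015 peak within 10 kb, and several of the strongest peaks were among the narrowest.

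Among the 362 members with no OTX015 peak within 10 kb, the most combination cover in that span was at CEBPE and NFE2. They were followed by ATP6V0A1, another subunit of the lysosomal proton pump, with 1929 bp, although just 20 bp of its window were covered. BCL6B, a zinc finger repressor, had 1898 bp, MNT 1868 bp, and the divergent pair AAK1, a kinase of clathrin adaptors, and ANXA4, an annexin, 1727 bp each. PLA2G2C had 1705 bp, EFEMP2, an elastic fiber protein, 1632 bp, and FURIN, a protease of the secretory route, 1476 bp. At all of these the OTX015 list held 0 bp in the span, as their choice required.

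**Figure D4:**
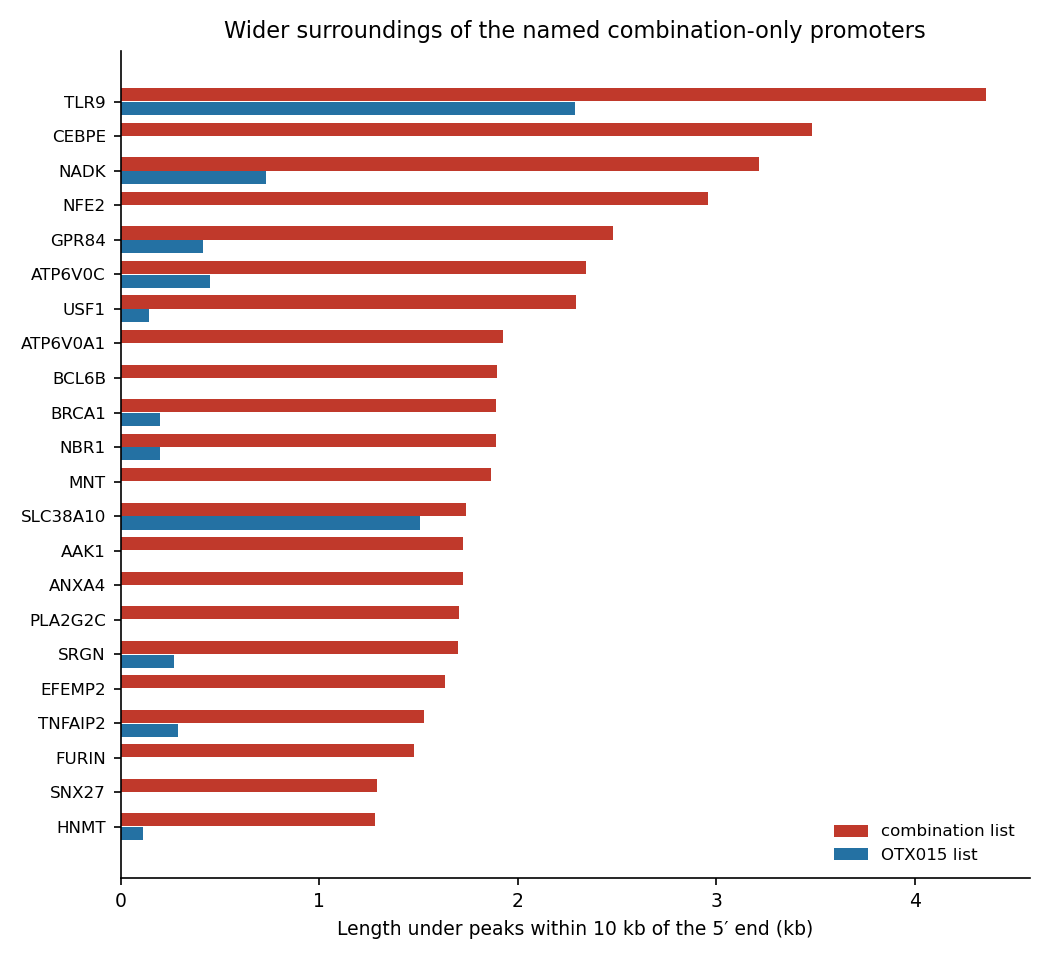
Length under peaks within 10 kb of the 5′ end (kb) in the combination list (red) and the OTX015 list (blue) for the combination-only promoters with the largest cover, the widest peaks or the largest cover clear of OTX015 peaks. CEBPE (3483 bp) and NFE2 (2961 bp) have no blue bar, and SLC38A10 has bars of similar length (1739 and 1508 bp).

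Gene content was read from 32 gene lists and 19 families defined by symbol, with 62 members in at least 1 list and 143 in at least 1 list or family, so most members belong to neither. The study names MLL fusion targets, of which 7 lie on these chromosomes, and none was a combination-only promoter: 3 were OTX015-only, 3 had peaks in both lists and 1 had none. Of 16 further MLL fusion targets, 0 were combination-only, 3 OTX015-only, 4 in both and 9 without a peak. Genes that the study names for lower or higher mRNA gave 0 of 8 and 0 of 6. For that mRNA the study set the combination beside SNDX-50469 alone, whereas the peaks here compare it with OTX015 alone. The share of 3.62% over all promoters amounts to less than 1 promoter in each of these lists.

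Granule and promyelocyte genes had 3 combination-only promoters of 13 (23.1%), with 2 OTX015-only and 6 in both, beside 3.62% over all promoters. Of the 9 granule promoters with a combination peak, 3 (33.3%) had no OTX015 peak, near the 36.9% over all promoters with a combination peak. Besides SRGN and CEBPE this was PRG2, the major basic protein of eosinophil granules, with 223 bp covered. Genes of monocyte and neutrophil effector functions had 0 of 37, and 6 of them had peaks in both lists. Of 34 hematopoietic transcription factors 2 were members (5.88%), CEBPE and NFE2, with 3 OTX015-only and 9 in both. Each of the 6 effector promoters with a combination peak also had an OTX015 peak, beside 36.9% without one over all such promoters. With 6 and 9 such promoters, the effector and granule lists cannot be set apart. The lists are short and no test was made.

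Lysosome and antigen processing genes had 5 members of 27 (18.5%, beside 3.62% over all promoters) and 2 OTX015-only promoters. They include 3 subunits of the V0 part of the proton pump, ATP6V0C (578 bp covered), ATP6V0B (286 bp) and ATP6V0A1 (20 bp). GRN, progranulin, a lysosomal protein, had 465 bp covered and its nearest OTX015 peak at 10405 bp, and LAMTOR4, of the complex that recruits mTORC1 to lysosomes, had 118 bp. Of the 6 lysosomal promoters with a combination peak, 5 (83.3%) had no OTX015 peak in the window, beside 36.9% over all promoters with a combination peak. Autophagy genes gave 3 of 32 (9.38%), NBR1 with 724 bp, ATG7, which activates ubiquitin-like proteins of autophagosome formation, with 475 bp, and GABARAP, one of the proteins so conjugated, with 352 bp.

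Chemokines, cytokines and their receptors had 5 members of 58 (8.62%, beside 3.62% over all promoters), with 3 OTX015-only. Of the 13 with a combination peak, these 5 (38.5%) had no OTX015 peak, near the 36.9% over all such promoters. CCR7, which guides cells to lymph nodes, had 572 bp covered, IL6R, the receptor of interleukin 6, 539 bp, CXCR2, which neutrophils use to follow chemokines, 405 bp, IFNAR2, of the type I interferon receptor, 194 bp, and TNFRSF9, a costimulatory receptor, 176 bp. OTX015 peaks lay 1087 bp from IFNAR2 and 1771 bp from IL6R, and over 10 kb from the other 3. The family of interleukins and chemokines by symbol gave 8 of 110 (7.27%), which adds the ligands CCL27 (337 bp), IL36A (164 bp) and CCL18 (137 bp) and the receptors CCR3 (494 bp) and IL23R (241 bp). TNF and NF-kB response genes gave 3 of 35 (8.57%): TNFAIP2 with 934 bp, IER5 with 281 bp and FOS, of the AP-1 factor, with 267 bp. Interferon response genes gave 2 of 52 (3.85%), TRIM25 (289 bp) and PML (155 bp), close to the share over all promoters. Pattern recognition genes gave 2 of 27 (7.41%), TLR9 and MEFV, which encodes pyrin, with 168 bp.

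Cytosolic ribosomal protein genes had 7 members of 54 (13.0%), with 11 OTX015-only promoters and 3 in both. Thus 3 of their 21 peaked promoters had peaks in both lists. Over all promoters, 505 were combination-only (3.62%), 803 OTX015-only (5.76%) and 864 had peaks in both lists (6.2%). The difference was not tested. RPLP2 had 826 bp covered, RPL23 750 bp, RPLP0 368 bp and RPL32 332 bp, and RPS15A, RPL27 and RPS2 184, 106 and 37 bp. At RPLP2, RPL23 and RPLP0 the peak was at the lowest enrichment of the list, 4.76 times. None of the 7 had an OTX015 peak within 10 kb. Ribosomal proteins are among the most highly expressed genes of growing cells. Mitochondrial ribosomal proteins gave 2 of 59 (3.39%), ribosome biogenesis genes 4 of 62 (6.45%), among them UTP18 (595 bp) and GNL3 (358 bp), IMP4 (134 bp) and SURF6 (123 bp).

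DNA replication and repair genes had 6 members of 58 (10.3%), with 8 OTX015-only and 7 in both. BRCA1 had 642 bp covered at the 5′ end of its gene record, by the peak whose middle lies inside NBR1. APEX1, the abasic site endonuclease, had 490 bp, and RFC4 and RFC2, subunits of the clamp loader, 436 and 390 bp. XRCC5, which encodes Ku80, had 302 bp, and ORC2, of the origin recognition complex, 70 bp. Cell cycle genes gave 1 of 37 (2.70%), near the 3.62% over all promoters: CCND2, cyclin D2, with 160 bp. This list had 12 OTX015-only promoters and 10 in both, where the shares over all promoters are 5.76% and 6.2%. Splicing and mRNA processing genes gave 6 of 70 (8.57%), led by SNRPG, a core snRNP protein, with 588 bp and PRPF38A with 322 bp, SRSF9 with 274 bp and BUD13 with 252 bp. PRPF3 and SNRPD1 were the other two. Of the splicing promoters with a combination peak, 24 of 30 had an OTX015 peak as well, beside 864 of 1369 over all promoters with a combination peak.

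**Figure D5:**
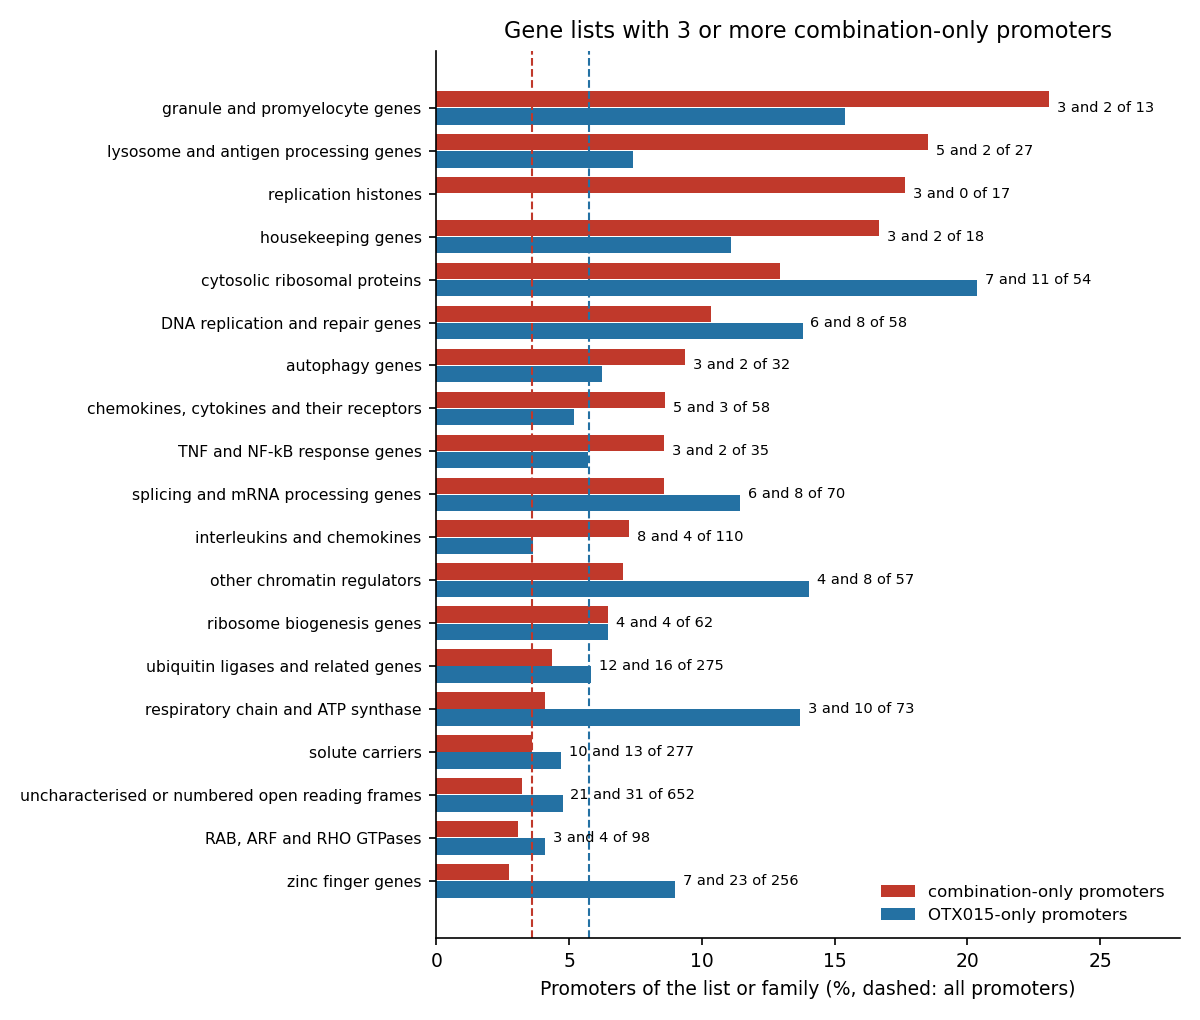
Share of promoters of each list or family that were combination-only (red, upper bar) or OTX015-only (blue, lower bar), for those with 3 or more combination-only promoters, with the numbers of promoters behind each pair and dashed lines at the shares over all promoters, 3.62% and 5.76%. Granule genes (3 of 13) and lysosome genes (5 of 27) have the longest red bars, and zinc finger genes (7 of 256) a red bar short of the line.

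Genes of chromatin gave small numbers in each list, to be read beside 3.62% over all promoters. Over all promoters with a combination peak, 36.9% had no OTX015 peak. That share was 20% of 10 BET, Menin and MLL complex promoters and 20% of 20 other chromatin regulators. It was 12.5% of 8 acetyltransferase and deacetylase promoters and 100% of 3 replication histone promoters. None of this was tested. BET, Menin and MLL complex genes gave 2 of 22 (9.09%): CCNT1, the cyclin of P-TEFb, with 376 bp, and AFF1, a fusion partner of MLL, with 42 bp. Of 33 acetyltransferase and deacetylase genes 1 was a member (3.03%), HDAC9 with 128 bp. Other chromatin regulators gave 4 of 57 (7.02%), with 8 OTX015-only and 16 in both: PBRM1, of a SWI/SNF complex, with 358 bp, KDM2B, which binds CpG islands, with 250 bp, SETD1B, a methyltransferase of H3K4, with 191 bp, and ASXL2 with 127 bp. Replication histone genes outside chromosome 6 gave 3 of 17 (17.6%), H2AC19, H2BC21 and H2AC20 of the small cluster on chromosome 1, with 164, 154 and 154 bp and no OTX015 peak within 10 kb. H2BC21 and H2AC20 are a divergent pair over 1 shared peak.

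Metabolic and signaling genes were scattered. TFRC, the transferrin receptor, had 700 bp covered and no OTX015 peak closer than 52503 bp, and SLC40A1, the iron exporter ferroportin, had 260 bp and, at 770513 bp, the most distant OTX015 peak of any member. PIK3CG, the PI3K subunit of leukocytes, had 701 bp and HRAS 390 bp, in a list with 2 of 47 (4.26%). SEC61B (867 bp) and SEC61A1 (119 bp), both of the translocon, were the 2 members of 43 genes of the unfolded protein response and the endoplasmic reticulum (4.65%). PFKL, a glycolytic kinase, was the 1 of 29 (3.45%), with 397 bp. In the apoptosis list CASP2 (151 bp) and FASLG (123 bp) were the 2 of 29 (6.90%), beside 3.62% over all promoters. No p53 target of 21 and no cholesterol or lipid synthesis gene of 29 was a member. Just 3 and 4 of these had a combination peak at all, so their absence says little. Housekeeping genes gave 3 of 18 (16.7%), TFRC, RPLP0 and VPS29, a retromer subunit, with 256 bp. Of the 10 housekeeping promoters with a combination peak, these 3 (30%) had no OTX015 peak. That is near the 36.9% over all promoters with a combination peak.

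Some members are known from other lineages. GFAP, the filament protein of astrocytes, was 1 of 29 genes used elsewhere than in blood (3.45%), with 845 bp covered and an OTX015 peak no closer than 26518 bp. GNLY, of cytotoxic lymphocytes, had 668 bp and CD3D, of the T cell receptor complex, 165 bp, 2 of 26 T and NK cell genes (7.69%). Olfactory receptors gave 2 of 345 (0.580%) and keratins 2 of 149 (1.34%), all 4 with 130 bp or less. Zinc finger genes gave 7 of 256 (2.73%), with 23 OTX015-only promoters, and homeobox genes 0 of 112, of which 3 had a combination peak. Solute carriers gave 10 of 277 (3.61%), on the share of 3.62% over all promoters.

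Members were spread over all 16 chromosomes, from 1.84% of promoters on chromosome 4 (14 of 759) to 4.91% on chromosome 12 (50 of 1018). A peak shared with another member was found at 107 members, and 76 members formed 38 divergent pairs whose starts lay within 1 kb and pointed apart. Counting promoters that share a peak once left 452 of the 505 members and 699 of the 803 OTX015-only promoters, so sharing is not particular to the members. The share of divergent pairs over all promoters was not counted. ALG2, a mannosyltransferase of glycan synthesis, and SEC61B start 340 bp apart under 1 peak of 867 bp. OIP5, a centromere protein, and NUSAP1, of the spindle, start 290 bp apart under 846 bp, and PIDD1, of the p53 response, and RPLP2 466 bp apart under 826 bp. At BRCA1 and NBR1 the starts are 82 bp apart, and at PBRM1 and GNL3 7 bp. Such pairs are 1 measurement for 2 genes, and the peak does not say which gene of a pair it belongs to.

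In 14 places at least 3 members followed each other with starts no more than 100 kb apart, and runs in other promoter classes were not counted. The longest runs had 4, MUS81, EFEMP2, TSGA10IP and CATSPER1 over 167 kb of chromosome 11 and BZW1, PPIL3, NIF3L1 and ORC2 over 152 kb of chromosome 2. On chromosome 12, NFE2, GPR84 and ZNF385A lay within 90.3 kb, with OTX015 peaks nearer to GPR84 (5513 bp) and ZNF385A (4318 bp) than to NFE2. Gene length set the members slightly apart, with a median of 22.1 kb, against 28.6 kb for OTX015-only promoters, 30.7 kb for promoters with peaks in both lists and 25.8 kb for promoters with none.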

How the data were processed

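Per the submitters' processing notes, the authors used bcl2fastq 2.17, Trimmomatic 0.33, Bowtie 1.1.2 and MACS2 2.1.0 on GRCh38. For each ChIP library they deposited a list of broad peaks, with start and end, a score that follows the −log10 q, a fold enrichment ratio, a −log10 p-value and a −log10 q-value for each peak. The deposited −log10 p-value and fold ratio of the lowest peaks gave the background of each list under a Poisson model with a pseudocount of 1. Read numbers are unknown. The deposited score was not used for any result.

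Gene records were RefSeq on GRCh38.p14, and strands came from the RefSeq promoter table (11515 genes) or GENCODE v44 by symbol and chromosome (2422). Without a strand, 193 genes were not classed. A promoter's strongest peak is the one with the highest −log10 q. Cover is the length of a window under peaks. Samples were grouped by their treatment labels. No test was made, because each treatment has 1 library.

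Of 1370 distinct list genes 1369 matched, 2 of them by an older symbol. Members and gene lists were chosen with earlier results of these data known. The genes named are the 10 members with the largest cover, the highest −log10 q, the widest peak, and the largest 10 kb cover without OTX015 peaks, the members of the gene lists, and those at the edges of the rule, of which 1 is not reported here. Alternatives were stricter, equally many, merged or equally enriched peaks, other overlaps and windows, and promoters that share a peak counted once. On simulated data, class, cover, distance and background were right in 50 of 50 runs each. The software was pandas 2.3.3, numpy 2.4.6, matplotlib 3.10.9 and scipy 1.17.1 under Python 3.11.15.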

Additional observations from a re-analysis of the deposited data

How the results depend on the processing

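Each of the 4 results, the number of combination-only promoters, their ratio to OTX015-only promoters, their median peak width and their median cover, was computed under 9 alternatives, and 25 of the 36 values stayed within 1.5 times (number and ratio) or within the 95% interval of the median (width and cover). The number of 505 became 172 when a −log10 q of 2 or more was required, 288 with as many combination peaks as OTX015 peaks, 1 (FEM1B) at a common enrichment over background and 780 with windows of 2 kb either side. The ratio of 0.629 became 0.305 with equally many peaks and 0.000633 at the common enrichment, and it was under 1 in all 9. The median width of 269 bp (248 to 299 bp) became 576.5 bp with that −log10 q, 405 bp with an overlap of at least 200 bp and 307 bp with windows of 500 bp either side. The median cover of 239 bp (201 to 257 bp) became 513 bp and 387 bp with that −log10 q and with an overlap of at least 200 bp. The stricter settings leave fewer and stronger peaks in both lists, so promoters can also enter the class by losing an OTX015 peak: 50 of the 172 and 274 of 337 with 200 bp of overlap were among the 505. No paired analysis was possible because each treatment has 1 ChIP library. The lists give no read numbers, a peak that is not listed is not an absence of acetylation, and the library with the lower threshold is the combination library.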

Other observations

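Promoters of long non-coding RNAs, which the gene-based classes above leave out, were classed in the same way where the RefSeq promoter table gives a strand. Of 8667 such promoters on the 16 chromosomes, 219 (2.53%) were combination-only, 244 OTX015-only and 302 had peaks in both lists. The strongest peaks of the 219 had a median width of 258 bp, and 42 of them started within 2 kb of the 5′ end of a combination-only protein-coding gene. The largest cover was 1191 bp at LINC00582, 1092 bp at INCR1 and 1078 bp at FOSL2-AS1, with OTX015 peaks 1196, 1094 and 1005 bp away. GATA2-AS1, which starts beside the hematopoietic factor gene GATA2, had 988 bp covered and an OTX015 peak 1552 bp away.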
